A study of Mus musculus with 24 samples.

Results

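Messenger RNA for 6 genes of estrogen and steroid signaling was examined in the nucleus accumbens (NAc) of male and female mice: the estrogen receptors *Esr1* and *Esr2*, the progesterone receptor *Pgr*, the enzymes *Cyp19a1* (aromatase) and *Srd5a1* (5-alpha-reductase type 1), and the estrogen-induced gene *Greb1*. The genes were chosen as a set by symbol, with earlier results of these data known but by no rule on their values, found through their Ensembl identifiers, and make up 6 of the 38293 genes counted. The groups were unstressed males (NSM), stressed males (SM), unstressed females (NSF) and stressed females (SF), all gonadally intact C57BL/6J mice aged 9 weeks by the labels. Stressed mice had been through subchronic variable stress (SCVS), in which foot shock, tail suspension and restraint alternated over consecutive days, and their tissue was taken the day after the last stressor. Controls were housed in groups and left unstressed. Each group had 3 RNA-Seq libraries, and each library was a pool of 10 bilateral NAc punches from 5 mice. All females were in estrus or proestrus, but the stage is not given for each library, so that these pools cannot show effects of the cycle.

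Estrogen receptors are transcription factors that estradiol switches on, and in the striatum much of the receptor protein lies at membranes outside the nucleus. Aromatase makes estradiol from testosterone, also within the brain, while 5-alpha-reductase turns testosterone into dihydrotestosterone and takes progesterone through the first step toward the neurosteroid allopregnanolone. In the uterus and breast estradiol induces the genes of the progesterone receptor and of GREB1, a cofactor that binds the estrogen receptor on chromatin. The comparisons address whether SCVS changes the RNA of these genes in the NAc of each sex, and whether the sexes differ in it.

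None of the 6 genes was called in any of the comparisons. The rule for a call asked for an unadjusted limma p below 0.05 together with a change of 1.3-fold or more. Only *Srd5a1* and *Pgr* met the p part of that rule, and neither met the fold part. *Srd5a1* had 1.18-fold more RNA in stressed than in unstressed males (adjusted p = 0.204). *Pgr* had 1.08-fold more in female than in male pools (adjusted p = 0.198).

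Counted over the comparisons, the calls of the 6 genes were as follows. In stressed against unstressed males 0 of 6 were called while 6.44% of all tested genes were, and 2 of 6 (*Pgr* and *Srd5a1*) did not overlap between the groups, against 23% of all genes. In stressed against unstressed females 0 of 6 were called (1.73% of all genes) and 0 of 6 did not overlap (11.3%). The sex-by-stress interaction called 0 of 6, with 4.42% of all genes. Unstressed females against unstressed males gave 0 calls (5.31% of all genes) and 1 gene without overlap, *Pgr* (19.5%), and stressed females against stressed males gave 0 calls (5.55%) and no gene without overlap (20.4%). In all female against all male pools 0 of 6 were called (4.72%) and 0 did not overlap (1.55%), and in all stressed against all unstressed pools 0 of 6 (3.38%). With so few genes, a count of 0 is near what the background share gives. At an unadjusted p under 0.05 alone, limma held *Srd5a1* in the male stress comparison (21.5% of all genes) and *Pgr* in the comparison of all pools by sex (20.4%), and 0 of 6 in stressed females (4.23%), the interaction (9.55%), unstressed mice by sex (15.4%), stressed mice by sex (16.4%) and all pools by stress (18.7%). edgeR's quasi-likelihood test held the same genes in the first pair of comparisons, *Esr1* over all pools by stress (unadjusted p = 0.0485), and 0 elsewhere. DESeq2's Wald test held *Srd5a1* in the male stress comparison and 0 elsewhere, and neither tool called a member by the full rule. Shares of all genes with edgeR and DESeq2 are not given here, so these counts stand without a background.

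Between 41076780 and 60867747 reads were counted per library, and 18593 genes, all 6 among them, had enough reads to be tested. Values are given as CPM, edgeR's read count relative to library size after scaling of the libraries by TMM factors. *Xist*, the RNA of the inactive X chromosome, had 1010 to 1280 CPM in female and 2.38 to 4.52 CPM in male pools, so that every library matched its label of sex. Summed markers of medium spiny neurons, the main striatal cell type, ranged from 5650 to 7090 CPM. Markers of cortical glutamatergic neurons, which lie beside the punched region, summed to 50.4 to 68.9 CPM in NSM, 91.1 to 243 in SM, 66.1 to 415 in NSF and 85.0 to 159 in SF. Markers of the septum summed to 30.4 to 33.2 CPM in SM, 35.4 to 45.3 in NSM, 46.2 to 69.9 in NSF and 39.6 to 82.4 in SF. One NSM library had 108 CPM of choroid plexus markers, against 32.0 to 43.6 in the other libraries. In pooled tissue, fewer cells of a type and less RNA per cell cannot be told apart, and p values measure the spread between pools of mice, not between single mice.

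Per length, the RNAs formed 3 tiers. The mean over the 12 libraries was 3.28 CPM per kb of merged exons for *Pgr* and 2.25 for *Srd5a1*. *Esr2* followed at 0.157 and *Esr1* at 0.140 CPM per kb, then *Greb1* at 0.0661 and *Cyp19a1* at 0.0571. *Pgr* was above *Srd5a1* in 12 of 12 libraries, and both were above the other 4 genes in every library. The order of the 2 estrogen receptors depended on the length used: *Esr1* lay above *Esr2* in 2 of 12 libraries per kb of merged exons but in 12 of 12 per kb of the longest transcript, because the annotated exons of *Esr1* add up to 13.7 kb while its longest transcript has 6.34 kb. By the longest transcript *Esr1* had 0.302 and *Esr2* 0.158 CPM per kb. *Cyp19a1* lay above *Greb1* in 3 of 12 libraries, so these neighbors were not separated. The glucocorticoid receptor *Nr3c1*, at 16.5 CPM per kb of merged exons, lay above all 6.

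**Figure D1:**
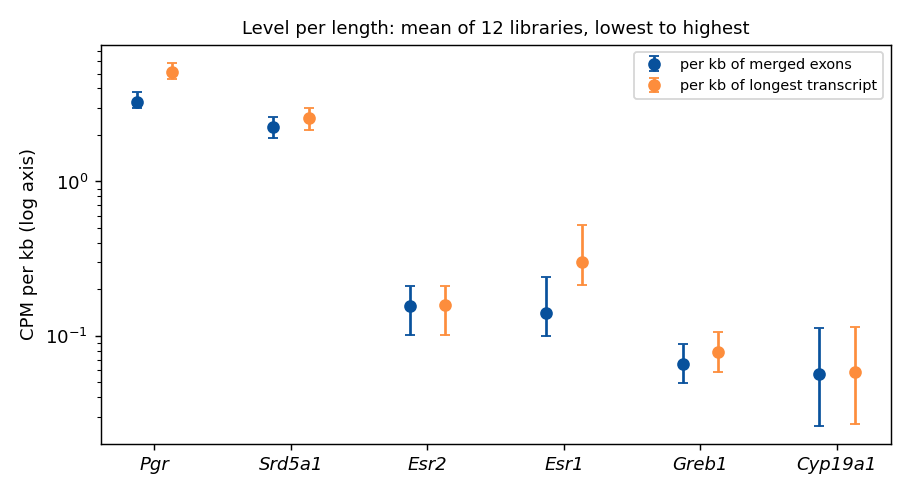
Level of each gene in CPM per kb on a log axis, divided by merged exons (blue) or by the longest transcript (orange); points are means of 12 libraries and bars run from the lowest to the highest library. *Pgr* (3.28) and *Srd5a1* (2.25 CPM per kb of merged exons) lie far above the other 4 genes, and *Esr1* moves from 0.140 to 0.302 with the length used.

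*Pgr* and *Greb1* are the members of the set best known as estrogen-induced genes, and they lay in the highest and the lowest of these tiers. Their promoter windows are shown for that reason, from 250 bases before to 50 bases after the RefSeq start on build GRCm38.p6, written 5′ to 3′ on the strand of the gene. Capitals mark GGTCA or its reverse complement TGACC, each the half-site of the estrogen response element.
Pgr, chr9:8899583-8899882, plus strand: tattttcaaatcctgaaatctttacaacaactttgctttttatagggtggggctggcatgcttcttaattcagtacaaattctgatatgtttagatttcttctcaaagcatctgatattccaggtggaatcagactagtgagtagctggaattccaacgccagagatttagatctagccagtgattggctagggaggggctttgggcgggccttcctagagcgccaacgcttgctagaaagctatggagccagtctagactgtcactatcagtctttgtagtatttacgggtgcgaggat
Greb1, chr12:16800837-16801136, minus strand: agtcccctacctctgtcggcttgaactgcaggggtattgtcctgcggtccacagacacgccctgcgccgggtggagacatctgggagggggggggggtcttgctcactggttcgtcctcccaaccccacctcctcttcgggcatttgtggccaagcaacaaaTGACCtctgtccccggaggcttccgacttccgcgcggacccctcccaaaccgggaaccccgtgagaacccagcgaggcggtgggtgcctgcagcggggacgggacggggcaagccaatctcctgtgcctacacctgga
The *Pgr* window, the only one listed for that gene, held no half-site, and the *Greb1* window shown held 1, which began 88 bases before the start. A further *Greb1* window, at chr12:16757190-16757489, held 2, beginning 194 and 85 bases before its start, and the window farthest upstream in the gene was the one printed. RefSeq lists 10 windows for the 6 genes, 6 of which held a half-site (windows of *Esr1*, *Esr2*, *Cyp19a1* and *Greb1*), while 40.5% of all 32851 windows of this length did. The full palindrome, GGTCA and TGACC in this order with 3 bases between them, was in none of the 10 and in 0.07% of all windows. A missing match says only that these letters are not in the window, and binding of a receptor was not measured.

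*Esr1* (ENSMUSG00000019768, chromosome 10 of NCBIM37, 5340927 to 5734948) encodes estrogen receptor alpha. It had 1.80, 1.63 and 2.27 CPM in NSM and 1.36, 1.64 and 1.77 CPM in SM. It had 2.05, 1.85 and 3.29 CPM in NSF and 1.57, 2.15 and 1.59 CPM in SF. In each sex the unstressed group held the highest library and the stressed group the lowest, but the groups overlapped. The log2 fold change of stressed against unstressed was -0.24 in males (standard error, SE, 0.23, adjusted p = 0.576, limma) and -0.37 in females (SE 0.22, adjusted p = 0.948). The effects in the sexes differed by -0.14 (SE 0.32), less than its error. Over both sexes, *Esr1* had a log2 fold change of -0.31 (SE 0.16, unadjusted p = 0.0725, adjusted p = 0.313), and 1 of 6 stressed libraries lay above the unstressed mean. The 95% interval of that fold ran from 0.639 to 1.02.

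The highest *Esr1* value of all was that of NSF replicate 3, which also held the most cortical marker RNA (415 CPM), and NSF replicate 2, the lowest of its group in *Esr1*, held the least in that group (66.1 CPM). Other libraries did not follow this order: NSF replicate 1 held 300 CPM of the markers with 2.05 CPM of *Esr1*, and NSM replicate 3 held 68.9 CPM with 2.27. In the limma fit without NSF replicate 2, *Esr1* was called in stressed against unstressed females (log2 fold change -0.57, unadjusted p = 0.0228, adjusted p = 0.494). In the same fit it was called in unstressed females against unstressed males (0.47, unadjusted p = 0.0449, adjusted p = 0.300) and over both sexes for stress (-0.40, unadjusted p = 0.0209, adjusted p = 0.211). Without NSF replicate 3 the same values were -0.13 (unadjusted p = 0.489), 0.04 (unadjusted p = 0.844) and -0.18 (unadjusted p = 0.180), so the size of these differences and the calls changed with which of these 2 libraries was left out. In males the fits without each library gave -0.32 to -0.10. With the mean log2 level of the cortical markers as a covariate, an alternative added after the data were seen, *Esr1* was called in stressed males (-0.68, unadjusted p = 0.0225, adjusted p = 0.215) and over both sexes (-0.45, unadjusted p = 0.00791, adjusted p = 0.115). In the same fit stressed females had -0.22 (unadjusted p = 0.293), and the difference between unstressed females and males went from 0.28 to -0.19. The summed cortical markers did not overlap between NSM (50.4 to 68.9 CPM) and SM (91.1 to 243 CPM), so in males this covariate and stress cannot be told apart. With the septal markers as the covariate instead, *Esr1* had -0.10 in stressed males (unadjusted p = 0.692) and -0.41 in stressed females (unadjusted p = 0.0868). The part of cortical or septal RNA in the level of *Esr1* was not tested beyond these fits.

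*Esr2* (ENSMUSG00000021055, chromosome 12, 77221406 to 77278246) encodes estrogen receptor beta and had 16 to 32 reads per library. It had 0.547, 0.427 and 0.572 CPM in NSM and 0.403, 0.404 and 0.709 CPM in SM. It had 0.541, 0.511 and 0.616 CPM in NSF and 0.339, 0.587 and 0.699 CPM in SF. The highest and the lowest library both came from stressed groups, which were wider than the unstressed ones, and all groups overlapped. Log2 fold changes were -0.06 (95% interval -0.69 to 0.57) for stress in males, -0.09 (-0.69 to 0.52) for stress in females and 0.10 (-0.49 to 0.70) for unstressed females against males. Intervals of this width leave room for a 1.3-fold change either way, so a change of that size was not detectable at this depth.

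*Pgr* (ENSMUSG00000031870, chromosome 9, 8900419 to 8965425) had 616 to 1027 reads per library and was the most evenly measured of the 6. It had 14.2, 14.8 and 14.5 CPM in NSM and 15.5, 15.6 and 15.6 CPM in SM. It had 15.4, 16.9 and 15.2 CPM in NSF and 15.2, 16.9 and 18.0 CPM in SF. All 3 NSM libraries lay below every other library of the study, while the other groups overlapped. Stress went with log2 fold changes of 0.10 in males (SE 0.07, unadjusted p = 0.164) and 0.07 in females (SE 0.07, unadjusted p = 0.318). Female pools had 16.3 CPM and male pools 15.0 CPM on average, a log2 fold change of 0.11 (SE 0.05, unadjusted p = 0.0333, adjusted p = 0.198), and 6 of 6 female libraries lay above the male mean. The 95% interval of that fold was 1.01 to 1.16, short of the 1.3-fold threshold, and in the other comparisons too no interval of *Pgr* reached a 1.3-fold change in either direction. Septal markers were also higher in female than in male pools: 4 of 4 had positive log2 fold changes and 3 were called (4.09% of all genes were called higher). With their mean log2 level as a covariate, *Pgr* differed by 0.05 (unadjusted p = 0.495) between the sexes. Between the male groups the septal markers went the other way from *Pgr*, with 35.4 to 45.3 CPM in NSM and 30.4 to 33.2 in SM. With the septal covariate *Pgr* had 0.15 in stressed males (unadjusted p = 0.0637). Of the cortical markers 9 of 9 were positive in female against male pools and 1 was called. With the cortical markers as a covariate, *Pgr* differed by 0.13 (unadjusted p = 0.0329) between the sexes. The part of either region in the result was not tested further.

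**Figure D2:**
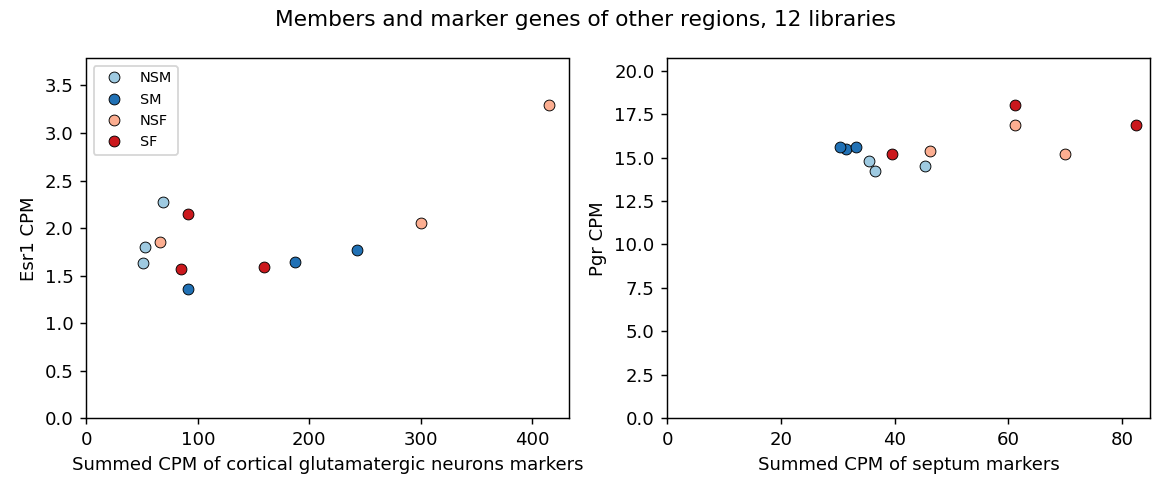
Left, *Esr1* CPM against the summed CPM of 9 markers of cortical glutamatergic neurons; right, *Pgr* CPM against the summed CPM of 4 septal markers; each point is 1 of the 12 libraries, colored by group. The NSF library with the most cortical marker RNA (415 CPM) has the highest *Esr1* (3.29 CPM), and the septal markers are lowest in SM (30.4 to 33.2 CPM).

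*Cyp19a1* (ENSMUSG00000032274, chromosome 9, 54013744 to 54115917) was close to the limit of what these libraries measure. It had 5, 5 and 10 reads in NSM and 8, 5 and 4 reads in SM. It had 12, 6 and 9 reads in NSF and 3, 7 and 5 reads in SF. Every library held aromatase reads, and no group stood apart. Summed over a group, the 20 reads in NSM had an exact Poisson interval of 12.2 to 30.9, the 17 in SM of 9.90 to 27.2, the 27 in NSF of 17.8 to 39.3 and the 15 in SF of 8.40 to 24.7, which cover counting error only. The log2 fold change of stress was 0.04 in males (SE 0.48) and -0.68 in females (SE 0.47, unadjusted p = 0.164, adjusted p = 0.948). Without NSF replicate 2, which had 6 reads, the female value was -1.11 (unadjusted p = 0.0278, adjusted p = 0.522) and met the call rule, while without NSF replicate 1, which had 12 reads, it was -0.38 (unadjusted p = 0.458). Between unstressed females and males the log2 fold change was 0.44 (95% interval -0.52 to 1.40), from 0.13 without NSF replicate 1 to 0.87 without NSF replicate 2. Only in NSF did every library have over 5 reads, so *Cyp19a1* passed the filter for testing through the group where it was highest. For that reason its comparisons with NSF, and the call without NSF replicate 2, are no support for a difference.

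*Srd5a1* (ENSMUSG00000021594, chromosome 13, 69712327 to 69750320) had 6.60, 5.89 and 5.74 CPM in NSM and 6.80, 7.44 and 7.27 CPM in SM. It had 6.97, 6.09 and 7.86 CPM in NSF and 6.33, 7.26 and 7.25 CPM in SF. The male groups did not overlap, while each female group had libraries at the level of NSM and at that of SM. The mean was 7.17 CPM in SM against 6.08 CPM in NSM, a log2 fold change of 0.24 (SE 0.10, unadjusted p = 0.0381, adjusted p = 0.204, limma), or 1.18-fold with a 95% interval of 1.01 to 1.38. In females the log2 fold change of stress was 0.01 (SE 0.10, unadjusted p = 0.897). The 2 effects differed by -0.23 (SE 0.15, unadjusted p = 0.143), so a difference between the sexes was not shown. Summed oligodendrocyte markers likewise did not overlap between the male groups, with 3590 to 3960 CPM in NSM and 4230 to 4280 CPM in SM, and neither did the cortical, septal and microglial markers (microglia 177 to 199 CPM in NSM and 200 to 225 CPM in SM). The septal markers were lower and the others higher in SM. The part of oligodendrocyte and microglial RNA in the level of *Srd5a1* was not tested. With the cortical markers as a covariate, the male difference of *Srd5a1* was 0.04 (unadjusted p = 0.732), and with the septal markers 0.27 (unadjusted p = 0.0348). With scaling to the totals without TMM it was 0.19 (unadjusted p = 0.106). *Srd5a1* shares 476 exonic bases with the processed transcript *Gm17108* on the same strand, and how reads there were counted is not given.

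**Figure D3:**
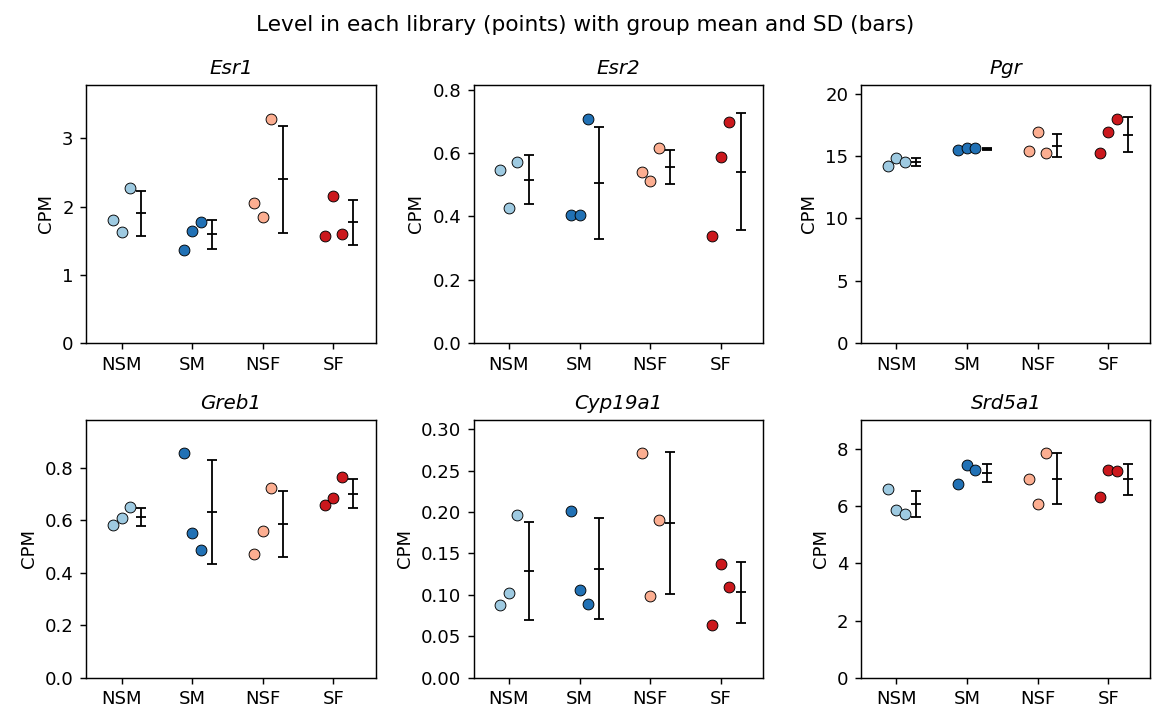
CPM of each of the 6 genes on axes that start at 0; points are the 3 libraries of each group and the bars beside them the mean and SD. The 3 NSM libraries of *Pgr* (14.2 to 14.8 CPM) lie below all others, NSF replicate 3 stands high for *Esr1* (3.29 CPM), and NSM lies below SM without overlap for *Srd5a1*.

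*Greb1* (ENSMUSG00000036523, chromosome 12, 16677421 to 16807692) had 21 to 35 reads per library. It had 0.582, 0.610 and 0.651 CPM in NSM and 0.856, 0.553 and 0.487 CPM in SM. It had 0.473, 0.561 and 0.722 CPM in NSF and 0.657, 0.685 and 0.765 CPM in SF. SM spanned nearly the whole range of the gene, and the groups of every comparison overlapped. The log2 fold change of stress was -0.01 in males (SE 0.23), whose sign differed between tools, and 0.27 in females (SE 0.22, unadjusted p = 0.241), and the effects differed by 0.28 (SE 0.32). All 3 SF libraries lay above the NSF mean and above the SM mean.

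**Figure D4:**
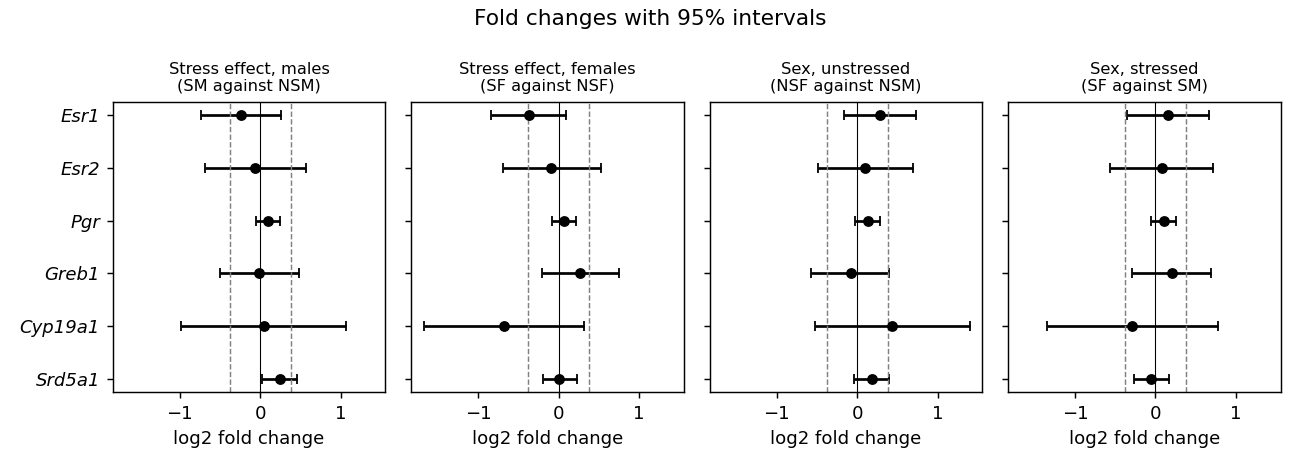
Log2 fold changes of the 6 genes (points) with 95% intervals from limma (bars) in 4 comparisons; dashed lines mark a 1.3-fold change in either direction. The interval of *Srd5a1* in males (0.02 to 0.46) is the only one that excludes 0, and those of *Cyp19a1* are the widest.

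The precision behind these values differed widely between the genes. The SD of log2 CPM within groups was 0.0773 for *Pgr* and 0.125 for *Srd5a1*, 1.48 and 1.58 times what counting error alone would give. *Greb1* (0.272) and *Cyp19a1* (0.640) varied by 1.04 and 1.14 times their counting error, so their spread was almost that of the read counts. *Esr2* (0.384) was at 1.35 times and *Esr1* (0.301) at 2.02 times its counting error. The spread of *Esr1* within groups was thus the one most above counting error. Those SDs used no prior reads. With a prior of 2 reads the SD of *Esr1* was 0.295, larger than in 86.9% of the 1000 tested genes nearest to it in level. Over the 12 libraries the log2 CPM of *Esr1* and *Esr2* had a Pearson r of 0.49, the highest of the 15 pairs of members, and that of *Esr1* and *Pgr* an r of -0.13. These correlations are descriptions over libraries that share depth and dissection differences.

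The genes whose log2 CPM followed each member most closely over the 12 libraries, among 14434 or 14435 genes with a mean of at least 1 CPM, were *Spag5* (Pearson r 0.931, Spearman rho 0.965), *Adrbk2* (0.919, 0.734) and *Chd5* (0.918, 0.776) for *Esr1*. *Ngfr* (r 0.957, rho 0.741), *Mon1b* (0.957, 0.888) and *Bmp6* (0.923, 0.930) followed *Pgr*, and *BC049635* (0.962, 0.930), *Cav2* (0.946, 0.902) and *Tmem163* (0.945, 0.839) followed *Srd5a1*. For the members with few reads the closest genes were *Tpcn2* for *Esr2* (r 0.874, rho 0.923), *Gm14401* for *Cyp19a1* (0.854, 0.839) and *Inpp4b* for *Greb1* (0.848, 0.888). Further genes were *Msto1* (0.869) for *Esr2*, *Tmem169* (0.841) and *Ccdc86* (0.816) for *Cyp19a1*, and *Cnnm4* (0.814) and *Zfp526* (0.811) for *Greb1*, by Pearson r. As the highest values among so many genes, these are a description only, and 1% of the genes reached an r of 0.789 with *Esr1*.

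Around the 6 genes, 4 lists of the pathway were counted by the same rule. Of 11 other steroid receptors, all tested, 0 were called for stress in either sex or for the interaction (median log2 fold change 0.09 in males and 0.05 in females, against -0.01 and 0 over all genes). *Nr3c1* kept between 121 and 124 CPM in all group means. The membrane estrogen receptor *Gper1* had 2.15 ± 0.157 CPM in NSM, 2.40 ± 0.475 in SM, 2.56 ± 0.358 in NSF and 2.39 ± 0.393 in SF (SD, n = 3). The 1 receptor of the list that was called was *Esrra*, in the comparisons of the sexes. Of all genes, 4.17% were called higher in unstressed females, 4.58% in stressed females and 4.09% over all female pools. *Esrra* is an orphan relative of the estrogen receptors, which does not bind estradiol and drives genes of mitochondrial metabolism.

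*Esrra* (chromosome 19, 6985467 to 6996303) had 22.1, 31.6 and 33.2 CPM in NSM and 24.8, 24.0 and 30.4 CPM in SM. It had 38.1, 39.8 and 40.8 CPM in NSF and 33.4, 36.6 and 38.1 CPM in SF. Every female library lay above every male library, a separation found for 1.55% of all tested genes. *Esrra* was higher in females by a log2 fold change of 0.48 without stress (SE 0.12, adjusted p = 0.112), 0.45 after stress (SE 0.13, adjusted p = 0.112) and 0.47 over all pools (SE 0.09, adjusted p = 0.0227). Without NSM replicate 1, the lowest library, the value without stress was 0.28 and that over all pools 0.36, both under the 1.3-fold threshold, and without SM replicate 2 the value after stress was 0.37. The progesterone receptors of the membrane *Paqr7* and *Paqr8* were higher in females over all pools by 0.21 and 0.20 on the log2 scale (adjusted p = 0.0341 and 0.0241), under the 1.3-fold threshold. In that comparison 5.06% of all genes had an adjusted p under 0.05.

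Of 15 genes of steroid synthesis and breakdown, 12 were tested and 0 were called in any comparison, with medians between -0.10 and 0.09. *Cyp17a1*, which makes androgens, and *Srd5a2*, the other 5-alpha-reductase, had means of 1.17 and 0.667 reads per library, and the estrogen sulfotransferase *Sult1e1* had none. *Cyp11a1*, the side-chain cleavage enzyme that starts steroid synthesis, had a mean of 35.0 reads. In stressed males, *Srd5a3* had a log2 fold change of 0.18 (SE 0.08, unadjusted p = 0.0389) and *Cyp7b1*, a steroid hydroxylase, 0.28 (SE 0.08, unadjusted p = 0.00489, adjusted p = 0.0843).

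Of 10 coregulators of the receptors, all tested, 1 that is not reported here was called lower in stressed males (4.08% of all genes). It was called higher in stressed females against males (4.58%) and over all pools by sex (4.09%). No coregulator was called in the other comparisons. The coactivators *Ep300* and *Ncoa2* had log2 fold changes of -0.18 (SE 0.05, unadjusted p = 0.00204, adjusted p = 0.0558) and -0.16 (SE 0.05, unadjusted p = 0.0048, adjusted p = 0.0840) in stressed males, short of the 1.3-fold threshold. *Ncoa3* had -0.17 (SE 0.06, unadjusted p = 0.0155) and *Pelp1* -0.13 (SE 0.05, unadjusted p = 0.0155) in the same comparison. An unadjusted p under 0.05 was reached there by 21.5% of all genes. *Ncoa1*, the first of the steroid receptor coactivators, had 185 ± 9.34 CPM in NSM, 188 ± 16.8 in SM, 181 ± 10.1 in NSF and 186 ± 4.56 in SF (SD, n = 3), with no difference beyond its spread.

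Of 10 genes known to respond to estrogen in other tissues, 9 were tested (*Tff1* had no reads). In stressed males 2 were called lower, *Xbp1* and *Prlr* (4.08% of all tested genes were called lower), and in stressed females 0 (1.73% called in either direction). In unstressed females against males 2 were called higher, *Ccnd1* and *Oxtr* (4.17% of all genes), and in stressed females against males 2, *Myc* and *Prlr* (4.58%). The interaction called *Xbp1* and *Prlr* higher (2.25%), all pools by sex called *Oxtr* higher (4.09%), and all pools by stress called 0 (3.38% in either direction). Their median log2 fold change was -0.01 for stress in males, -0.10 for stress in females and 0.26 over all pools by sex, where the median of all genes was 0.

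*Xbp1* (chromosome 11, 5420662 to 5425896), a transcription factor of the unfolded protein response, had 97.0, 95.4 and 87.0 CPM in NSM and 68.3, 62.6 and 62.8 CPM in SM. It had 72.3, 83.9 and 80.9 CPM in NSF and 76.8, 67.4 and 73.4 CPM in SF. NSM stood above every other library, and the female groups overlapped. It fell in stressed males by 0.53 on the log2 scale (SE 0.07, adjusted p = 0.00372), and was called under 22 of 22 alternatives. Over both sexes the value was -0.33 (adjusted p = 0.0170), short of the 1.3-fold threshold. In females the log2 fold change of stress was -0.12 (SE 0.07, unadjusted p = 0.0909), also below 0. This effect was 0.41 higher than that in males (SE 0.10, unadjusted p = 0.000923, adjusted p = 0.182). Unstressed females were lower than unstressed males by 0.24 (SE 0.07, unadjusted p = 0.00353, adjusted p = 0.133), short of the 1.3-fold threshold.

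*Prlr* (chromosome 15, 10106993 to 10303504), the prolactin receptor, had 3.21, 1.5 and 3.29 CPM in NSM and 1.13, 0.893 and 1.06 CPM in SM. It had 1.17, 2.59 and 2.19 CPM in NSF and 1.72, 3.95 and 2.84 CPM in SF. SM lay below every other library, and the groups of females overlapped. The log2 fold change was -1.31 in stressed males (SE 0.43, adjusted p = 0.107), and 1.40 in stressed females against stressed males (SE 0.43, adjusted p = 0.128). *Prlr* is abundant in the choroid plexus and the hypothalamus. The NSM library with 108 CPM of choroid plexus markers, replicate 1, had 3.21 CPM of *Prlr*. NSM replicate 3 (3.29 CPM) and SF replicate 2 (3.95 CPM) had more, with 37.6 and 40.4 CPM of these markers. Markers of the preoptic area and hypothalamus summed to 25.2 to 33.2 CPM in NSM and 20.4 to 27.2 in SM. Of the 7 tested, 2 were called lower in SM, *Calcr* and *Tac2* (4.08% of all genes were called lower). Of the 13 markers in that list, *Avp*, *Oxt*, *Hcrt*, *Pmch*, *Sim1* and *Otp* had too few reads to be tested. With the septal markers as a covariate the male stress value was -0.82 (unadjusted p = 0.0043) and the difference between stressed females and males 0.25 (unadjusted p = 0.433), and the part of neighboring regions in the level of *Prlr* was not tested further.

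*Oxtr* (chromosome 6, 112423678 to 112440884), the oxytocin receptor, had 4.20, 3.43 and 3.98 CPM in NSM and 3.55, 4.68 and 4.08 CPM in SM. It had 7.39, 4.22 and 10.2 CPM in NSF and 3.71, 5.50 and 5.05 CPM in SF. NSF was above NSM in every library, in the same order as its cortical markers (300, 66.1 and 415 CPM). The log2 fold change was 0.77 for unstressed females against males (SE 0.26, adjusted p = 0.190), 0.48 without NSF replicate 3, 1.16 without NSF replicate 2, and 0.01 (unadjusted p = 0.973) with the cortical markers as a covariate. Over all pools by sex it was 0.48 (SE 0.20, adjusted p = 0.181), a call that 9 of 22 alternatives lost, 7 of them by leaving out 1 library: NSM replicate 2 (0.44), SM replicate 1 (0.43), SM replicate 3 (0.47), NSF replicate 1 (0.44), NSF replicate 3 (0.33), SF replicate 2 (0.41) or SF replicate 3 (0.46).

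*Ccnd1*, cyclin D1 (chromosome 7, 152115836 to 152125774), had 18.4, 17.9 and 17.9 CPM in NSM and 23.7, 21.0 and 27.6 CPM in NSF, a log2 fold change of 0.40 (SE 0.12, adjusted p = 0.143). It was 0.30 without NSF replicate 3, 0.19 with the cortical markers and 0.29 with the septal markers as a covariate, none of them called. *Myc* (chromosome 15, 61816946 to 61821929), a transcription factor of growth, had 2.77, 3.08 and 2.84 CPM in SM and 3.56, 4.83 and 4.30 CPM in SF, a log2 fold change of 0.54 (SE 0.14, adjusted p = 0.103). With the septal markers as a covariate it was 0.27 (unadjusted p = 0.146). In both genes the female libraries lay above the male ones of that comparison without overlap, as for 19.5% of genes between unstressed and 20.4% between stressed mice of the sexes.

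**Figure D5:**
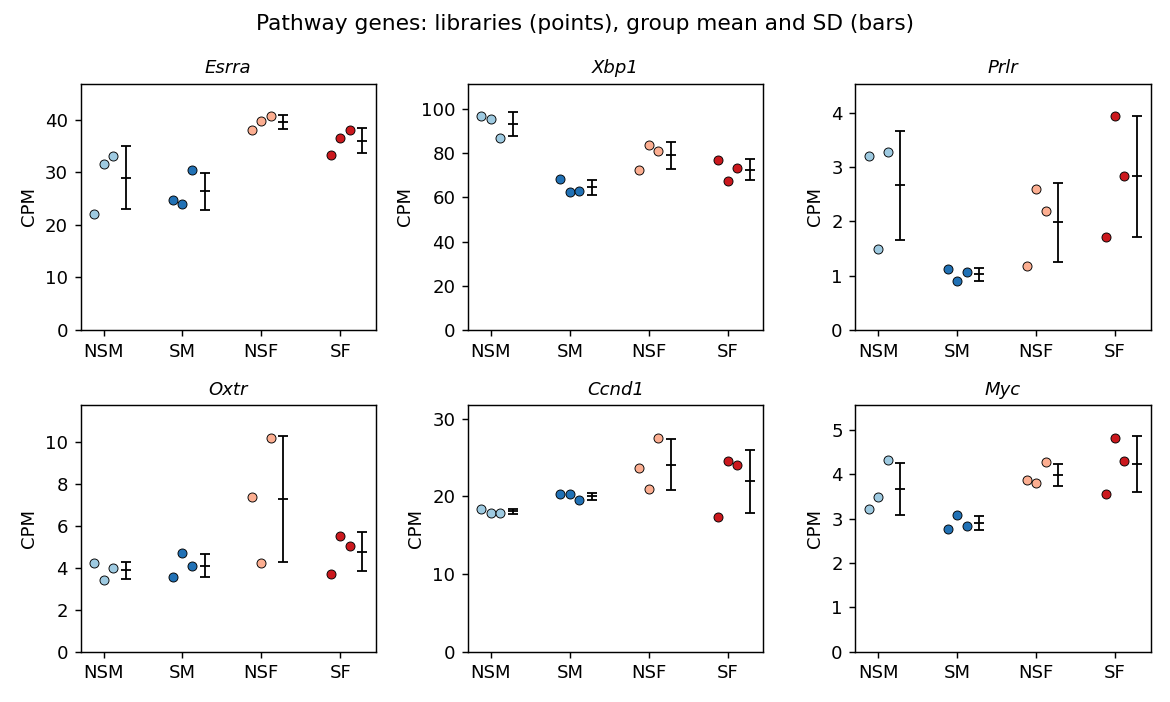
CPM of 6 pathway genes that were called in a comparison, on axes that start at 0; points are the 3 libraries of each group and the bars beside them the mean and SD. *Esrra* separates all female (33.4 CPM and above) from all male libraries (33.2 CPM and below), *Xbp1* is highest in NSM, and *Prlr* lowest in SM.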

How the data were processed

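The authors pooled NAc punches, made poly(A) RNA-Seq libraries, used TopHat2 to place paired reads on NCBIM37 with its Ensembl genes, and HTSeq to count them. The deposited table holds their raw counts per Ensembl gene, and the strand setting is not given in the sources used here. Small RNA libraries of the same design were not used here. Groups came from the sample labels. Symbols, positions and lengths came from the GENCODE annotation of NCBIM37, which held 33789 of the 38293 identifiers.

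Genes were kept when over 5 reads were found in 80% or more of a group's libraries, and counts were scaled by TMM (edgeR 4.0.16, R 4.3.3) and fitted with voom and limma 3.58.1 with one mean per group over all 12 libraries. P values were adjusted by Benjamini and Hochberg's method across the 18593 tested genes. With 3 against 3 pools, exact permutation of 1 gene's values stays above a p of 0.05. Log2 CPM used a prior of 2 reads, but the SDs set against counting error used none. As alternatives served DESeq2 1.42.0, the quasi-likelihood test of edgeR, other scalings and filters, quality weights, other call rules, a block by replicate number, fits without each library and, added after the data were seen, marker covariates and the same alternatives for the pathway genes. Steps were tested on simulated data. Promoter windows are those of RefSeq. Figures used matplotlib 3.10.9 (Python 3.11.15).

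The members and the gene lists were chosen with earlier results of these data known. Named were the 6 members, of each list the genes called in a comparison, up to 6 by smallest p, and for each member the 3 genes with the highest Pearson r, and other list genes were named after their values were seen. Some genes that the rule names are not reported here. No pair of libraries held identical counts.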

Additional observations from a re-analysis of the deposited data

Results flagged for a closer look

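The effects of SCVS in females and males differed by the interaction term for 2 genes known to respond to estrogen, and for none of the 6 members. For *Xbp1* the female effect (-0.12) was 0.41 higher than the male effect (-0.53) on the log2 scale (unadjusted p = 0.000923, adjusted p = 0.182, limma). Of 22 alternatives 17 kept this call, and it was lost without NSM replicate 1 (0.37), NSM replicate 2 (0.37), NSF replicate 1 (0.34) or SF replicate 1 (0.36), where the fold came under 1.3, and with the cortical markers as a covariate (0.26, unadjusted p = 0.0554). For *Prlr* it was 1.79 higher (unadjusted p = 0.00634, adjusted p = 0.318), between 1.14, with the septal markers as a covariate, and 2.13 in the 22 alternatives, all of which kept the call. Interaction values were positive for 7 of 7 tested markers of the preoptic area and hypothalamus. Of these 3 were called, *Calcr*, *Nkx2-1* and *Tac2* (2.25% of all genes were called higher). *Avp*, *Oxt*, *Hcrt*, *Pmch*, *Sim1* and *Otp* of the same list had too few reads to be tested. Interaction values were also positive for 4 of 4 markers of the septum and 4 of 4 tested ones of the choroid plexus, with 0 called. Of the cortical markers 8 of 9 were negative, with 6 called lower (2.17% of all genes). The part of these regions in the value of *Prlr* was not tested further. Neither *Xbp1* nor *Prlr* had an adjusted interaction p under 0.05 in limma, while DESeq2 gave 0.0282 for *Xbp1* and 0.0145 for *Prlr*. Groups of 3 libraries are too small for a test of single outlying libraries.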

How the results depend on the processing

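Members with few reads and fold changes near 0 changed sign with the settings. *Greb1* in stressed males went from -0.01 to 0.03 with edgeR, 0.04 with DESeq2 and 0.15 with quality weights. The interaction of *Esr2* went to 0.02 when scaled by library size only and to 0.15 with quality weights, which also gave 0.03 for *Esr2* in stressed females and 0.02 for the interaction of *Pgr*. With the cortical markers as a covariate, 1 member (*Esr1*) was called in stressed males and 1 over all stressed pools, against 0 of 6 without the covariate, and signs turned for *Cyp19a1* (-0.51) and *Greb1* (0.05) in stressed males, *Esr2* in stressed females (0.12), the interactions of *Esr1* (0.46), *Esr2* (0.62) and *Srd5a1* (0.05), unstressed females against males for *Esr1* (-0.19), *Esr2* (-0.41), *Cyp19a1* (-0.10) and *Srd5a1* (-0.04), stressed females against males for *Srd5a1* (0.01), and all pools by sex for *Esr2* (-0.09), *Cyp19a1* (-0.10) and *Srd5a1* (-0.01). With the septal markers they turned for *Esr2* (0.10) and *Greb1* (0.15) in stressed males, *Esr2* in unstressed females against males (-0.07), stressed females against males for *Esr1* (-0.16), *Esr2* (-0.26) and *Greb1* (-0.13), and all pools by sex for *Esr1* (-0.01), *Esr2* (-0.16), *Cyp19a1* (-0.31) and *Greb1* (-0.17). The cause of these turns was not tested, and the shares of all genes called with the covariates are not given here. Called by p alone, 1 member passed in stressed males (21.5% of all genes) and 1 over all pools by sex (20.4%).

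When each library was left out in turn, members called ranged from 0 to 2 in stressed females, 0 to 1 in unstressed females against males and 0 to 1 over all stressed pools, each time above 0 without NSF replicate 2, and stayed at 0 in the other comparisons. The 2 in stressed females were *Esr1* and *Cyp19a1*, the latter tested only through NSF. Shares of all genes called in these fits are not given here, so the counts are not read as results about the members. Ranges that crossed 0 were, in stressed males, -0.33 to 0.09 for *Esr2*, -0.27 to 0.37 for *Cyp19a1* and -0.23 to 0.15 for *Greb1*. In stressed females they were -0.29 to 0.21 for *Esr2* and -0.09 to 0.10 for *Srd5a1*. For the interaction they were -0.33 to 0.10 for *Esr1*, -0.23 to 0.27 for *Esr2* and -0.09 to 0.03 for *Pgr*. In unstressed females against males they were -0.02 to 0.18 for *Esr2* and -0.24 to 0.03 for *Greb1*, and in stressed females against males -0.02 to 0.23 for *Esr1*, -0.12 to 0.37 for *Esr2*, -0.52 to 0.01 for *Cyp19a1* and -0.09 to 0.01 for *Srd5a1*. Over all pools by sex they were -0.01 to 0.24 for *Esr2*, -0.08 to 0.29 for *Cyp19a1* and -0.03 to 0.16 for *Greb1*, and over all stressed pools -0.20 to 0.07 for *Esr2*.

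Same-numbered libraries of groups deviated from the group means with correlations between -0.0223 and 0.345 across genes, not all over 0.1, so the numbers were not taken to pair the libraries. With a block by replicate number 0 members were called in every comparison, and *Esr1* over all stressed pools had -0.33 (unadjusted p = 0.0429). Single genes could still follow the numbers: *Esrra* was highest in replicate 3 of every group. With the block its adjusted limma p for females against males was 0.0187 without stress and 0.0164 after stress, against 0.112 for each without the block. With at least 10 reads required in every library, *Cyp19a1* was not tested. Of 563 values under the other alternatives 520 kept direction and call, 31 changed sign, 10 lost a call and 2 gained one.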
